A study of Homo sapiens with 6 samples.

Results

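The 57 genes described here encode nucleolar factors that build the ribosome, and their levels were followed in K562 cells expressing an shRNA against the long noncoding RNA lncRNA-IUR1 or a control shRNA. They were taken as a fixed list of symbols. The gene number of each row in the deposited table was matched to its official symbol, and rows whose symbol was on the list were kept. All 57 symbols were found among the 12486 genes of the table, and all 57 passed the filter of a mean of at least 0.1 FPKM (fragments per kilobase of transcript and per unit of sequencing depth), which left 12276 genes in the tests.

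Ribosomes are assembled in the nucleolus, where RNA polymerase I transcribes ribosomal DNA into a long precursor RNA. Small nucleolar ribonucleoproteins (snoRNPs) of the box C/D class methylate this precursor and those of the box H/ACA class convert uridines to pseudouridine, while small and large subunit processing factors fold, cut and package it. The genes of this programme are known as targets of MYC and are highly expressed in dividing leukemic cells, whose protein synthesis depends on it.

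K562 cells are an established human line of chronic myeloid leukemia with an active Bcr-Abl fusion kinase. The study asked how lncRNA-IUR1, which the labels call lncRNA-up91, acts in such cells, and this RNA-seq set compared 3 libraries of cells stably expressing a shRNA to luciferase (sh-luc) with 3 libraries of cells stably expressing a shRNA to the lncRNA (sh-IUR1). Both groups therefore carry an integrated shRNA, 1 shRNA sequence stands for the knockdown, and the labels name no drug treatment of these cells. In each group 1 library has no replicate number, and it is called unnumbered here beside replicates 1 and 2. The methods speak of independent groups of cells, but not of how they were kept apart, so p-values measure the spread between these libraries, which may be partly technical.

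In the labelled K562 cells all 10 erythroid markers were present, at mean levels from 9.67 FPKM for EPOR to 2915 FPKM for HBG2. Of 10 markers of other blood cells, 4 (CD2, MS4A1, CD14 and MPO) had no row in the table. Among the listed ones, PTPRC stayed between 0.23 and 0.41 FPKM, CD79A between 0.07 and 0.23 FPKM and CD3E, too low to enter the tests, between 0 and 0.18 FPKM. LYZ lay between 107 and 119 FPKM and CD3D between 3.51 and 4.96 FPKM. The level of lncRNA-IUR1 itself was not analysed here, and the libraries were therefore taken as labelled. The table gives no read totals, so the depth behind a value is unknown. Summed FPKM lay between 579820 and 606240 per library, pairwise correlations of log2(FPKM + 1) across genes between 0.9907 and 0.9984. Along the first principal component (59.3% of variance) the ends were the unnumbered sh-luc library (-19.79) and replicate 1 of sh-IUR1 (13.02).

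What the members share in the genome was examined before their levels. The E-box CACGTG, the core sequence to which MYC and related factors bind, occurred in 16 of the 47 members whose promoter was in the RefSeq promoter table (build GRCh38.p14, 250 bases before to 50 bases after the start), or 34%. The same letters were present in 10.5% of the promoters of genes tested (1044 of 9939) and in 7.4% of all promoters in that table (2030 of 27305). Of the 18 E-boxes in member promoters, 15 (83.3%) lay within 50 bases of the start, against 39.1% of those in promoters of tested genes. The following 30-base windows are shown because they carry the members' E-boxes upstream of the start, wherever the table holds 12 bases on either side of the site. The E-box is in capitals and each sequence is written 5′ to 3′ on the gene's own strand.

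NOP10, far E-box (chr15:34343289-34343318, minus strand): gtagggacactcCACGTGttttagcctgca
NOP10, near E-box (chr15:34343130-34343159, minus strand): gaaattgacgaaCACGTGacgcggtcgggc
NAT10 (chr11:34105602-34105631, plus strand): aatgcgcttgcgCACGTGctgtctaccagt
UTP18 (chr17:51260445-51260474, plus strand): gggagtgctggtCACGTGgcaagaggctgc
UTP20 (chr12:101280083-101280112, plus strand): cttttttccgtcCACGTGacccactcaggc
UTP4 (chr16:69132621-69132650, plus strand): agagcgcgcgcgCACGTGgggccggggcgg

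In 4 of these windows the E-box began at most 16 bases before the start, at -10 in UTP20, -11 in NOP10, -15 in NAT10 and -16 in UTP4, whereas it began at -89 in UTP18 and at -170 for the far site of NOP10. FBL, BYSL, LTV1, NOP14, WDR43, MRTO4, NOC3L, NOP2 and PES1 carried the E-box after the start, as UTP18 did at its other site, RRP9 across it, and UTP14A at -241. The ETS-type sequence CCGGAAG was found in 20 of the 47 promoters (42.6%, against 1987 of 9939 for tested genes) and the GC box GGGCGG in 35 (74.5%, against 70.2%). Of 93 promoters of other ribosome biogenesis genes, a wider list used below, 28 (30.1%) held the E-box and 44 (47.3%) the ETS-type sequence. The GC box was in 56 of them (60.2%). The E-box and ETS-type shares are thus not particular to the members. Motifs were searched on both strands and no match of one motif overlapped a match of another. Such matches describe letters and not binding. The promoters of NOP58, POLR1E, TCOF1, RRP12, UTP23, BOP1, RRP1B, RRS1, URB2 and NOLC1 were not matched.

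Several members also house snoRNAs, the guide RNAs of the modifying particles. In the GENCODE 44 annotation, 10 of 57 members (17.5%) held at least 1 snoRNA gene within their span, against 1.7% of tested genes (204 of 11887). These were NOP56, NOP58, DKC1, POLR1C, TAF1D, TSR1, WDR43, PPAN, GNL3 and NCL, with 36 snoRNAs in all, from 8 in TAF1D and 6 in GNL3 to 1 in POLR1C. All 36 lay clear of the exons of the canonical transcript. The 10 hosts had a median log2 fold change of -0.05 (6 lower, 4 higher), and the other 47 members one of -0.02 (36 lower, 11 higher).

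The members were abundant messages. Their median level was 58.6 FPKM, at the 87.2th percentile of the genes tested, and their means ran from 7.27 FPKM for UTP20 to 1283 FPKM for NPM1. Box H/ACA proteins had the highest median level (161 FPKM), then box C/D proteins (111 FPKM) and the abundant nucleolar proteins (105 FPKM), while RNA polymerase I factors (50.7 FPKM), large subunit assembly factors (52.2 FPKM) and small subunit processing factors (40.3 FPKM) were lower. Together the members held between 0.952% and 1.04% of summed FPKM in a library.

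Between sh-IUR1 and sh-luc no member passed the test. Fold changes here are differences of mean log2(FPKM + 1), sh-IUR1 minus sh-luc, tested with limma over all 12276 genes with Benjamini-Hochberg adjustment. At an adjusted p below 0.05, 0 of 57 members were called, and 0 of all genes (0%). The smallest adjusted p of a member was 0.930. At an unadjusted p below 0.05 the count of members was again 0, where 1.65% of all genes were higher and 0.994% lower in sh-IUR1 (203 and 122 genes, or 134 and 178 after quantile normalization). As for the size of change that these libraries leave possible, the 95% interval of the log2 fold change stayed within 0.5 of 0 on either side for 56 of the 57 members (98.2%, against 95.6% of all genes), UTP3 being the exception.

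The estimates leaned to lower values in sh-IUR1. The median log2 fold change of the members was -0.02, with 42 lower and 15 higher, while the median over all genes was 0.02 and 42.0% of them were lower. Without replicate 1 of sh-IUR1 the members' median was -0.0099 (33 lower, 24 higher), without replicate 2 of sh-IUR1 -0.04 (42 lower) and, after median-ratio scaling, which centres all genes near 0, -0.04 (50 lower, 7 higher). For 55 of the 57 members (96.5%) the range among the 3 sh-luc libraries alone was larger than the difference between groups, as it was for 91.1% of all genes. Groups did not overlap for 1 member, BYSL, which was lower in sh-IUR1. Over all genes, 3.03% were lower without overlap and 4.04% higher. By role the median was 0.01 for box C/D proteins, -0.05 for box H/ACA proteins, -0.01 for RNA polymerase I factors, -0.02 for small subunit factors, -0.02 for large subunit factors and -0.07 for the abundant nucleolar proteins. Over the alternatives these medians ran from -0.022 to 0.031, -0.081 to -0.020, -0.035 to -0.010, -0.057 to -0.0065, -0.048 to 0.0018 and -0.14 to 0.051 in the same order. The sign turned for the box C/D group and, only without replicate 2 of sh-luc, for the large subunit group. For the abundant nucleolar proteins it turned only without both unnumbered sh-luc and replicate 1 of sh-IUR1, an omission chosen after seeing the data. Under the other alternatives their median ran from -0.137 to -0.0122. A list of 106 other ribosome biogenesis genes showed the same median, -0.02, with 68 lower and 38 higher, 3 at an unadjusted p below 0.05 and 0 called. Named after their values were seen, these were DDX47, POLR1G and SURF2, all lower in sh-IUR1 (log2 fold changes of -0.25, -0.26 and -0.17, adjusted p = 0.930 for each by limma).

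**Figure D1:**
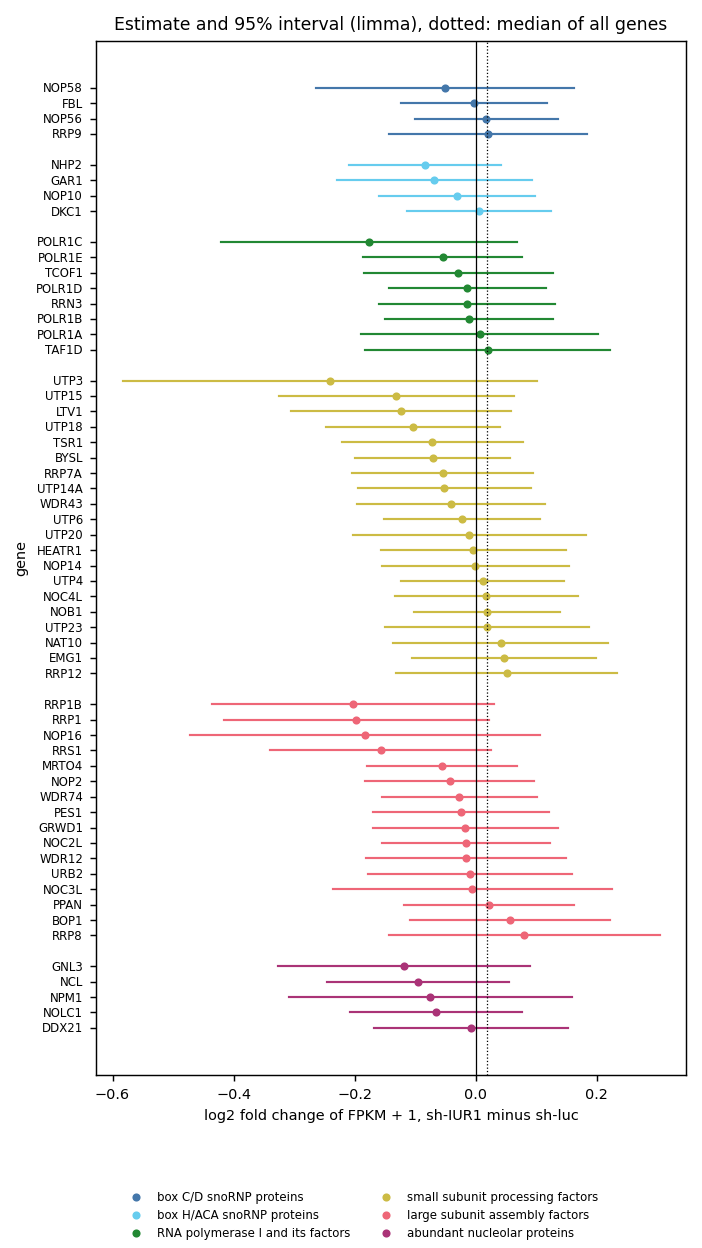
Log2 fold change of FPKM + 1 (sh-IUR1 minus sh-luc, x axis) of the 57 members (y axis, coloured by 6 role groups), as the limma estimate with its 95% interval from 3 libraries per group. All 57 intervals cross 0 (solid line), the dotted line marks the median of all genes (0.02), and UTP3 has the widest interval, from -0.58 to 0.10.

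Box C/D snoRNPs consist of the methyltransferase fibrillarin and its partners. Fibrillarin itself (FBL) was the second most abundant member, at 759, 738 and 762 FPKM in sh-luc (unnumbered, replicate 1, replicate 2, the order used throughout) and 748, 781 and 726 FPKM in sh-IUR1. NOP56, a scaffold protein of the particle, was at 153, 154 and 162 FPKM in sh-luc and 159, 160.3 and 156 FPKM in sh-IUR1. Neither gene separated the groups in any way, and both held nearly the same level in all 6 libraries. NOP58, the other scaffold protein, was at 75.1, 62.8 and 61.4 FPKM in sh-luc and 65.97, 56.8 and 69.4 FPKM in sh-IUR1. Its highest library was the unnumbered sh-luc one and its lowest replicate 1 of sh-IUR1, with the others between them. RRP9, which binds the U3 snoRNA needed for precursor cleavage, was at 45.4, 43.5 and 51.3 FPKM in sh-luc and 46.4, 49.7 and 45.9 FPKM in sh-IUR1. The log2 fold changes of the 4 genes lay between -0.05 (NOP58, SE 0.10) and 0.02 (RRP9, SE 0.07), and the groups overlapped for each.

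Levels within the particle kept their order in every library. On the FPKM scale, which is per length, FBL stood 4.67 to 4.96 times above NOP56 and 10.1 to 13.8 times above NOP58, and NOP56 stood 2.04 to 2.82 times above NOP58. The ratio of NOP56 to NOP58 was lowest in unnumbered sh-luc (2.04) and highest in replicate 1 of sh-IUR1 (2.82).

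The box H/ACA proteins showed a similarly narrow spread. Dyskerin (DKC1), the pseudouridine synthase, was at 125, 132 and 128 FPKM in sh-luc and 133, 127 and 126 FPKM in sh-IUR1. NOP10, a small core protein with 2 upstream E-boxes shown above, was at 222, 219 and 231 FPKM in sh-luc and 216, 232 and 210.4 FPKM in sh-IUR1. Both genes overlapped fully between groups, with log2 fold changes of 0.01 (SE 0.05) and -0.03 (SE 0.06). NHP2, which binds beside them, was at 206, 190.3 and 204 FPKM in sh-luc and 184, 195 and 187 FPKM in sh-IUR1. GAR1, which joins the mature particle, was at 95.6, 81.4 and 84.2 FPKM in sh-luc and 87.2, 79.8 and 81.5 FPKM in sh-IUR1. For NHP2 2 of the 3 sh-IUR1 libraries lay under every sh-luc library, while replicate 1 of sh-IUR1 did not, and its log2 fold change was -0.08 (SE 0.06). For GAR1 the difference was -0.07 (SE 0.07), and 0.00011 without the unnumbered sh-luc library. That library was its highest, so leaving it out could only raise the estimate. NOP10 exceeded DKC1 1.63- to 1.82-fold and NHP2 exceeded it 1.39- to 1.64-fold, whereas GAR1 was at 0.618 to 0.762 of the DKC1 level.

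**Figure D2:**
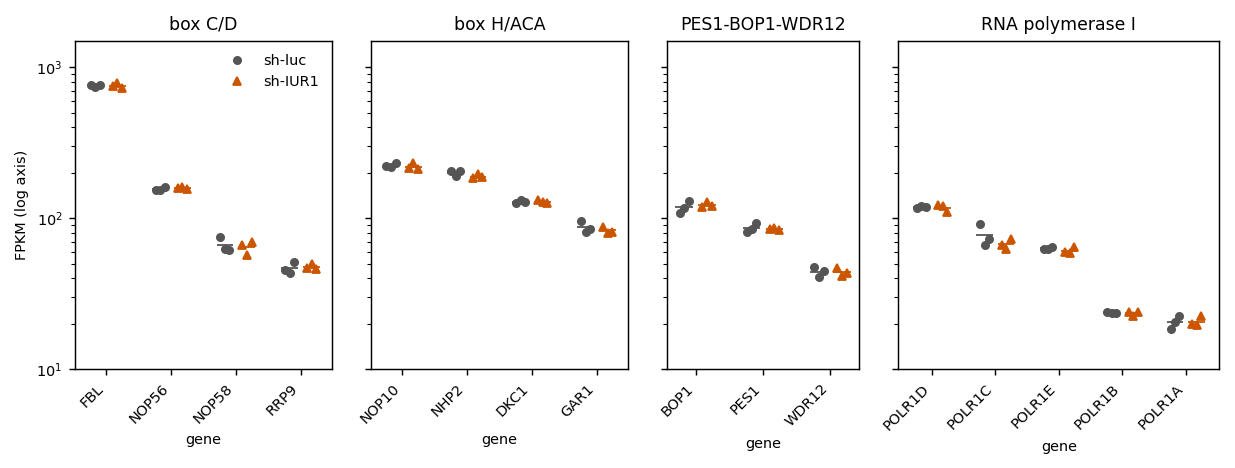
Level in FPKM (y axis, log scale) of members of 4 complexes (panels, genes on the x axis) in each library, with circles for the 3 sh-luc libraries, triangles for the 3 sh-IUR1 libraries and a short line at each group mean. FBL lies between 726 and 781 FPKM, well above its partners, and within every gene the circles and triangles overlap.

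RNA polymerase I and its factors act first in the pathway. POLR1A and POLR1B form the catalytic core of the enzyme. POLR1A was at 18.5, 20.4 and 22.6 FPKM in sh-luc and 19.9, 19.5 and 22.4 FPKM in sh-IUR1, and POLR1B was at 24.0, 23.4 and 23.5 FPKM in sh-luc and 23.8, 22.5 and 24.0 FPKM in sh-IUR1. POLR1B varied little over the libraries and POLR1A more, so that their ratio ran from 0.773 to 0.962. The subunits shared with RNA polymerase III were more abundant. POLR1D was at 116.6, 120.5 and 118.5 FPKM in sh-luc and 122, 119.8 and 111 FPKM in sh-IUR1, 4.93 to 6.29 times the level of POLR1A. POLR1C was at 91.7, 66.1 and 72.7 FPKM in sh-luc and 66.3, 62.8 and 72.9 FPKM in sh-IUR1. Only the unnumbered sh-luc library stood above the rest for POLR1C, and the log2 fold change of -0.18 had an SE of 0.11 (unadjusted p = 0.139, adjusted p = 0.930 by limma).

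POLR1E, a subunit that helps the enzyme initiate and elongate, was at 62.9, 62.5 and 64.3 FPKM in sh-luc and 59.8, 58.6 and 64.2 FPKM in sh-IUR1. The initiation factor RRN3 was the steadiest member of all, at 14.5, 14.3 and 14.2 FPKM in sh-luc and 14.3, 13.9 and 14.3 FPKM in sh-IUR1. TAF1D, a subunit of the promoter selectivity factor and host of 8 snoRNAs, was at 41.7, 36.8 and 38.5 FPKM in sh-luc and 43.5, 34.4 and 41.2 FPKM in sh-IUR1. Its highest and its lowest library were both sh-IUR1 libraries. Treacle (TCOF1), which ties transcription to processing, was at 58.8, 62.1 and 69.2 FPKM in sh-luc and 60.2, 64.1 and 61.6 FPKM in sh-IUR1. All 8 genes of the group overlapped between sh-luc and sh-IUR1, 6 of them with a lower and 2 with a higher mean in sh-IUR1.

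Small subunit processing factors act at several steps, from cleavage of the precursor towards 18S ribosomal RNA to late assembly and export. Of 20 such members, 13 had a lower and 7 a higher mean in sh-IUR1, and none was called. BYSL, an assembly factor that leaves the late small subunit precursor, was at 52.7, 51.7 and 54.4 FPKM in sh-luc and 48.8, 51.5 and 50.7 FPKM in sh-IUR1. The gene lies on chromosome 6 from 41908759 to 41933046 (GRCh38, 7 exons). The highest sh-IUR1 value came within a fraction of an FPKM of the lowest sh-luc value, and the log2 fold change of -0.07 (SE 0.06, 95% interval -0.20 to 0.06) had an unadjusted p of 0.240 (limma). UTP18, whose upstream E-box is shown above, was at 43.3, 39.2 and 40.4 FPKM in sh-luc and 37.6, 36.7 and 39.8 FPKM in sh-IUR1, a log2 fold change of -0.10 (SE 0.06, unadjusted p = 0.141 by limma). Here replicate 2 of sh-IUR1 lay above replicate 1 of sh-luc, and the remaining sh-IUR1 values lay below every sh-luc value.

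UTP3, a factor encoded by a single-exon gene, had the largest difference and the widest spread of the members. It was at 30.7, 20.9 and 20.8 FPKM in sh-luc and 19.8, 16.99 and 23.5 FPKM in sh-IUR1. The unnumbered sh-luc library was far above the others, and replicate 2 of sh-IUR1 lay above both remaining sh-luc libraries. Its log2 fold change was -0.24 (SE 0.15, 95% interval -0.58 to 0.10), and without the unnumbered sh-luc library and replicate 1 of sh-IUR1 it was 0.05. Those held its highest sh-luc and its lowest sh-IUR1 value and were left out after the data were seen, so the estimate could only rise.

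Other small subunit factors leaned upwards. The rRNA acetyltransferase NAT10 was at 66.8, 78.6 and 81.0 FPKM in sh-luc and 78.6, 80.6 and 73.3 FPKM in sh-IUR1. EMG1, a methyltransferase for 18S ribosomal RNA, was at 54.5, 57.9 and 61.2 FPKM in sh-luc and 61.1, 62.3 and 56.0 FPKM in sh-IUR1. RRP12, a factor for subunit export, was at 23.1, 26.6 and 28.9 FPKM in sh-luc and 26.9, 27.5 and 26.7 FPKM in sh-IUR1. In these 3 genes the unnumbered sh-luc library was the lowest of all 6, and the log2 fold changes were 0.04 to 0.05. NAT10 and RRP12 turned negative when that library was left out (-0.04 and -0.03). Leaving out the lowest sh-luc library can only lower a fold change, so the direction of this move is no result. The least abundant members were also of this group. UTP20, a very large scaffold protein, was at 7.28, 7.42 and 7.17 FPKM in sh-luc and 7.05, 6.62 and 8.08 FPKM in sh-IUR1, and UTP23 was at 8.56, 7.85 and 7.67 FPKM in sh-luc and 8.16, 8.04 and 8.21 FPKM in sh-IUR1. Neither showed a difference beyond its spread.

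Large subunit assembly factors held the members with the smallest p-values. Of 16, 13 had a lower and 3 a higher mean in sh-IUR1, and none was called. RRP1 was at 86.9, 68.7 and 78.2 FPKM in sh-luc and 65.97, 61.6 and 75.8 FPKM in sh-IUR1 (log2 fold change -0.20, SE 0.10, unadjusted p = 0.0719 and adjusted p = 0.930 by limma). Its paralog RRP1B was at 36.9, 30.4 and 31.8 FPKM in sh-luc and 27.03, 25.7 and 33.2 FPKM in sh-IUR1 (log2 fold change -0.20, SE 0.10, unadjusted p = 0.0818). The paralogs lie near each other on chromosome 21 (43789577 to 43805293 and 43659560 to 43696079, GRCh38), and it is not given how reads that match both were counted. In both genes replicate 2 of sh-IUR1 lay among the sh-luc values while its other libraries lay below them. RRS1, encoded by a single-exon gene on chromosome 8 and needed to bring 5S ribosomal RNA into the particle, was at 33.2, 27.1 and 31.4 FPKM in sh-luc and 27.8, 26.0 and 27.9 FPKM in sh-IUR1 (log2 fold change -0.16, SE 0.08, unadjusted p = 0.0837). All 3 sh-IUR1 libraries were below 2 of the sh-luc libraries and around the third.

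NOP16, a further nucleolar assembly factor, varied widely, at 116.5, 81.2 and 95.1 FPKM in sh-luc and 89.3, 72.8 and 94.1 FPKM in sh-IUR1. NOC3L was at 13.1, 10.9 and 10.4 FPKM in sh-luc and 11.6, 10.1 and 12.5 FPKM in sh-IUR1. In both genes the ends of the range were the unnumbered sh-luc library and replicate 1 of sh-IUR1. URB2 was at 10.04, 11.03 and 11.3 FPKM in sh-luc and 10.7, 10.4 and 11.04 FPKM in sh-IUR1. On the other side stood RRP8, a methyltransferase of 28S ribosomal RNA, at 21.5, 26.6 and 27.1 FPKM in sh-luc and 26.7, 28.9 and 23.9 FPKM in sh-IUR1. This pattern was the mirror image, with unnumbered sh-luc lowest and replicate 1 of sh-IUR1 highest, and its log2 fold change of 0.08 (SE 0.10) was the highest of all members.

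PES1, BOP1 and WDR12 form a complex required to process the precursor of 28S ribosomal RNA. PES1 was at 80.9, 84.6 and 93.5 FPKM in sh-luc and 84.8, 86.3 and 83.0 FPKM in sh-IUR1. BOP1 was at 108, 117 and 129.8 FPKM in sh-luc and 119, 128 and 120.1 FPKM in sh-IUR1. These 2 genes shared their lowest library, unnumbered sh-luc, and their highest, replicate 2 of sh-luc. WDR12 differed from them in its order, at 47.1, 40.8 and 44.5 FPKM in sh-luc and 46.6, 41.1 and 43.1 FPKM in sh-IUR1, with unnumbered sh-luc highest. The ratio of BOP1 to PES1 was 1.33, 1.38 and 1.39 for sh-luc libraries and 1.40, 1.49 and 1.45 for sh-IUR1 libraries, so the groups did not overlap. An exact two-sided permutation test gave p = 0.1, the smallest that 3 against 3 libraries allow, and 0.982 after adjustment over the 12 ratios of complex members examined. The ratio of WDR12 to PES1 ran from 0.476 to 0.583 with full overlap.

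The abundant nucleolar proteins were the group with the most uniform pattern. Nucleophosmin (NPM1), a histone and ribosome chaperone, was at 1524, 1209 and 1220 FPKM in sh-luc and 1295, 1096 and 1355 FPKM in sh-IUR1. Nucleolin (NCL), which binds the nascent precursor, was at 396, 348 and 360.3 FPKM in sh-luc and 343, 326 and 365 FPKM in sh-IUR1. In both, replicate 2 of sh-IUR1 was the second highest library. Nucleostemin (GNL3), the helicase DDX21 and the snoRNP chaperone NOLC1 shared these ends: in all 5 genes unnumbered sh-luc was the highest library and replicate 1 of sh-IUR1 the lowest. The median log2 fold change of the 5 genes was -0.07 with all libraries and 0.05 without these 2. That of NPM1 went from -0.07 (SE 0.10) to 0.13. This omission was chosen after the data were seen. Leaving out the highest sh-luc and the lowest sh-IUR1 library can only raise a fold change, so the direction of the move is no result. Human NPM1 has 49 pseudogenes named after it in the annotation, so that its level is uncertain where shared reads were split, and RRN3, NOP56, NHP2, NCL, PES1, NOC2L, LTV1 and NOLC1 have between 1 and 3 each.

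**Figure D3:**
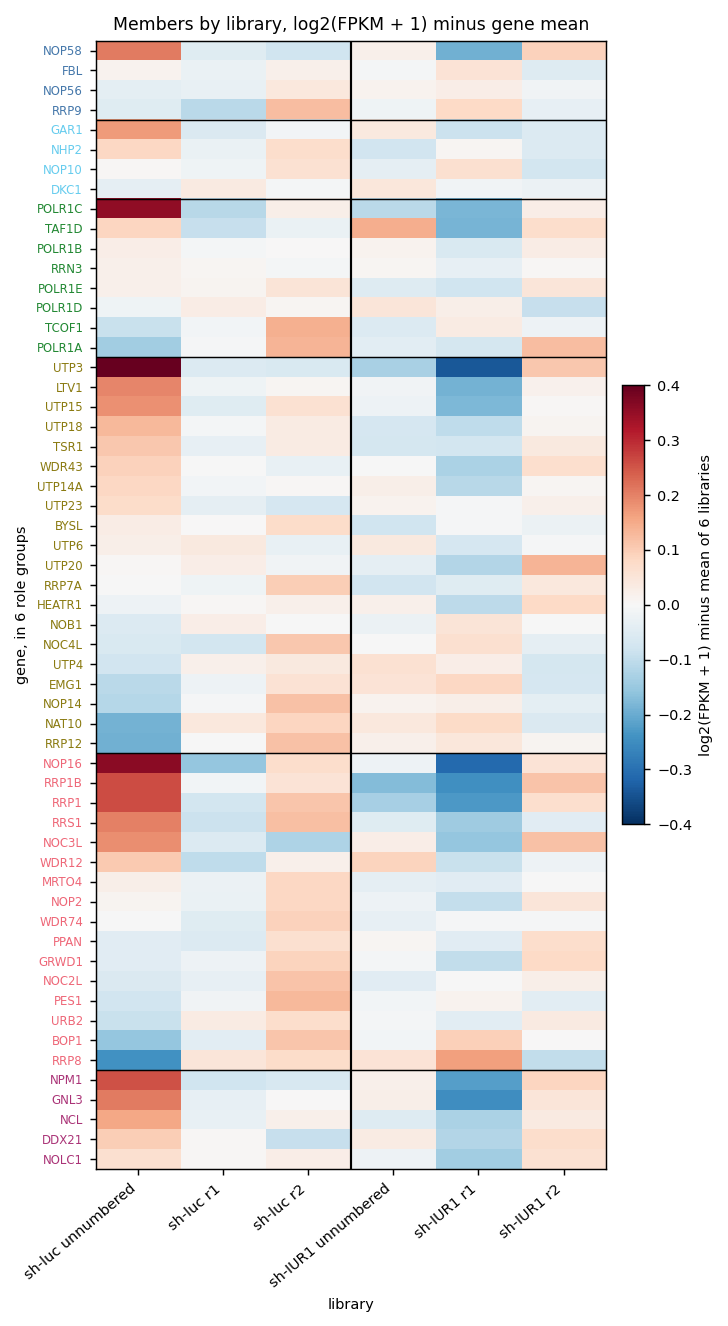
Each row is a member and each column a library, coloured by log2(FPKM + 1) minus the gene's mean over the 6 libraries (red above, blue below, scale ending at 0.4), with rules between the 6 role groups and between sh-luc and sh-IUR1. Unnumbered sh-luc and replicate 1 of sh-IUR1 carry the strongest colours, and within the large subunit group unnumbered sh-luc ranges from NOP16 and RRP1B in red to RRP8 in blue.

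For 55 of the 57 members the range among the sh-luc libraries exceeded the difference between groups, as it did for 91.1% of all genes. A range of single libraries and a difference of means are unlike measures, so this does not rank library and group effects. Unnumbered sh-luc was the highest library for 24 members (42.1%, against 24.1% of all genes) and the lowest for 15 (26.3%, against 38.4%). Replicate 1 of sh-IUR1 was the lowest for 30 members (52.6%, against 22.3%) and the highest for 5. Both ends coincided for 21 members (36.8%, against 12.9% of all genes). Replicate 2 of sh-luc was the highest library for 19 members (33.3%, against 11.6%), and for 10 of these unnumbered sh-luc was at the same time the lowest (17.5% of members, against 4.8% of all genes). These shares describe 6 libraries and were not tested.

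The mean log2(FPKM + 1) over the members was 5.92, 5.85 and 5.92 for sh-luc libraries and 5.86, 5.81 and 5.89 for sh-IUR1 libraries. A list of 26 integrated stress response genes, of which 25 had a row, was lowest in unnumbered sh-luc and highest in replicate 1 of sh-IUR1, with means of 5.28, 6.22 and 6.05 over sh-luc libraries and 6.26, 6.40 and 5.93 over sh-IUR1 libraries. Unnumbered sh-luc was the lowest library for all 25 genes. MYC was at 141, 173 and 175 FPKM in sh-luc and 176, 179 and 172 FPKM in sh-IUR1 (log2 fold change 0.12, SE 0.08), so its lowest library was the one in which many members were highest. The 10 erythroid markers had means of 7.47, 7.22 and 7.30 for sh-luc libraries and 7.24, 7.16 and 7.35 for sh-IUR1 libraries. The part of the stress list, of MYC or of the erythroid markers in the members' pattern was not tested. In bulk samples, fewer cells of a kind and less RNA per cell cannot be told apart.

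**Figure D4:**
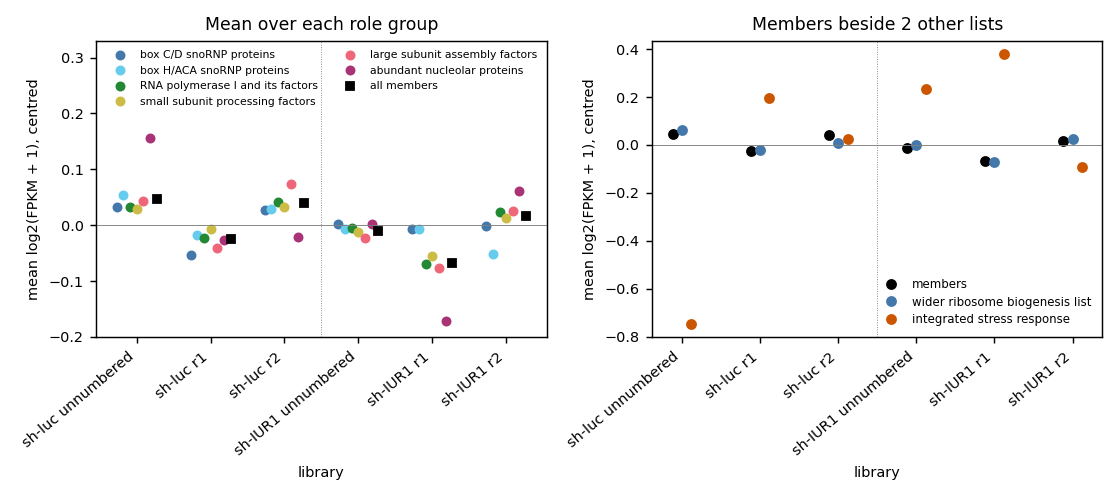
Mean log2(FPKM + 1) per library (x axis), centred on the mean of the 6 libraries (y axis), for the 6 role groups and all members (left) and for all members beside the wider ribosome biogenesis list and the integrated stress response (right, with a wider axis). The abundant nucleolar proteins reach furthest, from highest in unnumbered sh-luc to lowest in replicate 1 of sh-IUR1, and the stress list is lowest in unnumbered sh-luc (5.28 before centring) and highest in replicate 1 of sh-IUR1 (6.40).

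Members whose promoter held the E-box had a median log2 fold change of -0.03 (16 genes) and those whose promoter lacked it one of -0.02 (31 genes), and this difference was not tested. The deposited table also assigns each gene to 1 of 9 clusters by the shape of its profile over the 6 libraries. The clusters with the most members were 2, 3, 4 and 9, with cluster 4 first. They held 40 of the 57 members (70.2%, against 43.0% of all genes). As they were picked by the members' own counts, a share above that of all genes was largely built in. Cluster 4 alone held 13 (22.8%, against 10.5%), and its mean z-scores were 1.08, -0.34 and 0.70 for sh-luc libraries and -0.76, -0.74 and 0.06 for sh-IUR1 libraries. In cluster 9, with 9 members, unnumbered sh-luc was low instead, at -0.76, while both libraries numbered 2 were high, at 0.71 and 0.78. The members therefore did not share 1 profile.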

How the data were processed

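RNA came from what the methods call independent groups of K562 cells and was sequenced as 3 sh-luc and 3 sh-IUR1 Illumina libraries. Per the study's methods, the authors trimmed and masked reads, mapped them to hg38 and computed RPKM with samtools 0.1.19 (version also in the submitters' processing notes); the aligner is not given in the sources used here. The deposited table headers name the values FPKM, rounded to 2 decimals, and that name is used. The table holds 12486 genes whose FPKM had an SD over the libraries of at least 0.0501, so steadier genes are not analysed here. The authors made from these values a standard score (z score) for each gene over the 6 libraries, deposited in the same table. They also deposited a cluster number and a membership fraction, the second of which was not used.

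FPKM were set on a log2(FPKM + 1) scale, on which fold changes of low genes are understated. After a filter that kept genes averaging 0.1 FPKM or more, limma 3.58.1 under R 4.3.3 was used (lmFit, then eBayes with its trend option, group as the only term, two-sided), with Benjamini-Hochberg adjustment over all genes tested and a threshold of 0.05; the step was first tested on simulated data. Count models were left out, since the values are not counts. Symbols came from RefSeq by gene number. Tables and plots used Python 3.11.15, numpy 2.4.6, pandas 2.3.3 and matplotlib 3.10.9. Promoters were from RefSeq (GRCh38.p14) and gene spans from GENCODE 44.

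The members and all lists were chosen with earlier results of these data known, and support for a list is given as counts and medians without a p. Values in every library are given for the 4 members with the highest and the 4 with the lowest mean, the 5 per direction with the smallest p, members whose groups do not overlap, the 5 with the largest and the 3 with the smallest SD, and all members of the box C/D, box H/ACA, PES1-BOP1-WDR12 and RNA polymerase I complexes. Other pseudocounts, filters, scalings, a fit without a trend, a replicate block and each library left out were tried. Deviations of same-numbered libraries from their group means had correlations of 0.044 for the unnumbered, 0.385 for replicate 1 and -0.34 for replicate 2. These differ in sign between replicates and cannot exclude a pairing, as deviations within so small a group are tied to each other. The main fit did not pair the libraries, and the replicate block is given among the alternatives.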

Additional observations from a re-analysis of the deposited data

How the results depend on the processing

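No gene was called at an adjusted p below 0.05 under any of the 14 alternatives, the members and the list of 106 other ribosome biogenesis genes included. The members' median log2 fold change stayed between -0.04 and -0.01 and more members were lower than higher under each. With a replicate block, 533 of 12276 genes and 3 of 57 members (NOP16, RRP1B and RRP1) passed an unadjusted p below 0.05. Leaving out 1 library at a time gave 156 to 854 genes (156 without unnumbered sh-IUR1, 712 of 12277 without replicate 2 of sh-IUR1, 854 of 12274 without replicate 1 of sh-luc). It gave 0 to 4 of 57 members (POLR1C, RRS1, NOP16 and RRP1 without replicate 1 of sh-luc, RRP1 and RRP1B without replicate 2 of sh-IUR1, each lower). Taken over both directions, the shares of members were close to or below those of all genes. All members named so far were lower, whereas fewer of all genes were lower than higher. With the replicate block 178 genes were lower and 355 higher, and without replicate 1 of sh-luc 257 and 597. Without replicate 2 of sh-IUR1 they were 237 and 475. In the lower direction alone the members' share was thus the larger, which was not tested. None was called, so these names are no result about the members. Leaving out 1 library also gave 1 to 12 members whose groups do not overlap (12 or 21.1% without replicate 2 of sh-IUR1, where 25.1% of all genes did not overlap, and 9 or 15.8% without replicate 1 of sh-luc, against 22% of all genes). Quantile normalization left 0 such members. Without both unnumbered sh-luc and replicate 1 of sh-IUR1, an alternative chosen after seeing the data, 596 genes and 2 members (NPM1 and TAF1D, higher) passed the unadjusted threshold, 15 members (26.3%, against 32.1% of all genes) did not overlap and 32 of 57 changed sign. The sign held under all alternatives for 13 members, all lower: NHP2, POLR1E, UTP15, UTP18, RRP7A, BYSL, TSR1, NOP2, RRP1, RRP1B, RRS1, MRTO4 and NCL. Their sizes did not hold: the value nearest 0 was -0.0033 for NCL, -0.015 for UTP15, -0.051 for RRP1 and -0.051 for RRP1B, against -0.10, -0.13, -0.20 and -0.20 with all libraries. The filters, the fit without a trend and the replicate block leave a member's estimate unchanged, so they could not turn a sign. The other alternatives reuse the same libraries. How many of all genes kept their sign was not counted.

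Among all 57 members the log2 fold change turned for 8 under median-ratio scaling, for 9 under quantile normalization and for 5 to 16 when 1 library was left out. Among the members given by library, it turned under median-ratio scaling for NOP56 (-0.0030), DKC1 (-0.015), RRP9 (-8.1e-05), POLR1A (-0.013) and TAF1D (-0.00071), and under quantile normalization for NPM1 (0.010), FBL (0.080), NOP10 (0.0030), UTP23 (-0.018), POLR1A (-0.012), POLR1D (0.00060) and PES1 (0.0052). Among these, leaving out 1 library also turned it for the following, within these ranges: NPM1 -0.14 to 0.034, FBL -0.030 to 0.022, NOC3L -0.069 to 0.086, RRP8 -0.022 to 0.15, BOP1 -0.0068 to 0.13, RRP12 -0.033 to 0.12, NAT10 -0.043 to 0.094, DKC1 -0.016 to 0.024, NOP58 -0.11 to 0.039, GAR1 -0.12 to 0.00011, POLR1A -0.062 to 0.075, WDR12 -0.070 to 0.032, UTP20 -0.082 to 0.045, URB2 -0.057 to 0.023, RRP9 -0.028 to 0.088, TAF1D -0.048 to 0.12, UTP23 -0.0097 to 0.061, TCOF1 -0.080 to 0.035, PES1 -0.069 to 0.034, POLR1B -0.029 to 0.016 and POLR1D -0.042 to 0.029. The cause was not tested. Without read totals, the counting error behind each value is unknown.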
